A study of Saccharomyces cerevisiae with 11 samples.

Results

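The 10 glycogen genes of Saccharomyces cerevisiae described here are PGM2, UGP1, GLG1, GLG2, GSY1, GSY2, GLC3, GPH1, GDB1 and SGA1, which encode the enzymes that build glycogen, those that break it down, and those that supply its sugar donor. They were taken by gene symbol, from the array spots that carry one of these symbols in both deposited value tables. They made up 10 of the 5641 genes named in the series and 17 spots, with 2 spots each for PGM2, UGP1, GSY1, GLC3, GPH1, GDB1 and SGA1 and 1 spot each for GLG1, GLG2 and GSY2. The series measured RNA abundance in the laboratory strain S288C on 11 arrays with 2 channels. Each array held Cy5-labelled RNA of a culture given 2 µM arsenate and Cy3-labelled RNA of a control culture, for which the labels give sodium chloride (200 mM) in place of arsenate. All cultures grew at 30 °C in YNB medium with 2% sucrose, and arsenate was added at an optical density of 0.08. Low phosphate cultures had 100 µM phosphate, with 2 arrays each at 4, 8 and 10 h of arsenate. High phosphate cultures had 1 mM phosphate, with 2 arrays at 4 h, 2 more at 8 h and a single array at 10 h.

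Glycogen is the branched glucose polymer that yeast lays down as growth slows and draws on when sugar is short. Glucose 6-phosphate is turned into glucose 1-phosphate and then into UDP-glucose, glycogenin primes a chain on itself, glycogen synthase lengthens it, and a branching enzyme adds side chains. Glycogen phosphorylase, which uses inorganic phosphate, and the debranching enzyme take the polymer apart again. Arsenate is a chemical analogue of phosphate and enters yeast through phosphate carriers. Many glycogen genes belong to the general stress response of yeast and are under the control of protein kinase A and the activators Msn2 and Msn4.

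Values are given as log2 ratios, the arsenate culture over its control, so that values below 0 mean less RNA in the arsenate culture and each unit is a factor of 2. A ratio does not tell whether a transcript was lower in the arsenate culture or higher in the control culture of the same hour. Fewer cells that express a gene and less RNA of it per cell cannot be told apart in such cultures. The dyes had 1 orientation on all arrays, so a preference of a gene for a dye is part of each ratio; a constant preference cancels in differences between times. The arrays held values for 4484 to 5451 genes and for 7 to 10 of the glycogen genes. Replicates correlated across genes at 0.767, 0.936 and 0.836 at 4, 8 and 10 h of low phosphate, and at 0.547 and 0.199 at 4 and 8 h of high phosphate. The first 8 h array at high phosphate stood apart, with 134 of 2601 genes (5.15%) whose spots lay over 2 log2 units from each other, against 0% to 1.23% on the other arrays. Nothing in the labels tells whether a replicate was a culture of its own, so p-values measure only the spread between these arrays, and the small number of arrays limits every value.

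At low phosphate, 9 of the 10 glycogen genes were lower with arsenate at 8 h and 0 were higher, by 1.54-fold for GLG1 to 12.3-fold for GPH1 (limma, Benjamini-Hochberg adjusted p from 1.87e-13 to 0.000243). Of all 5185 genes tested, 30.5% were lower at 8 h. The median of the 10 genes was -2.04, and that of all genes was -0.13. GLG2 was the member that did not pass, at -0.05 (adjusted p = 0.806). At 4 h, 9 of 10 were lower and 0 higher (median -0.77), where 11.6% of all genes were lower and the median of all genes was 0.04. GLG1 was the exception at 4 h. At 10 h, 5 were higher, 1 was lower and 4 did not pass (median 0.30), beside 20.2% higher and 12.8% lower among all genes and an all-gene median of 0.07. With arrays centred on their gene median, the counts of members were the same at 4 and 8 h, and 4 higher and 1 lower at 10 h. Centring moved the all-gene median at 8 h from -0.13 to 0.00 and the all-gene calls from 951 higher and 1584 lower to 1446 and 1181. At 10 h it moved the all-gene calls from 1047 higher and 662 lower to 1041 and 1061.

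**Figure D1:**
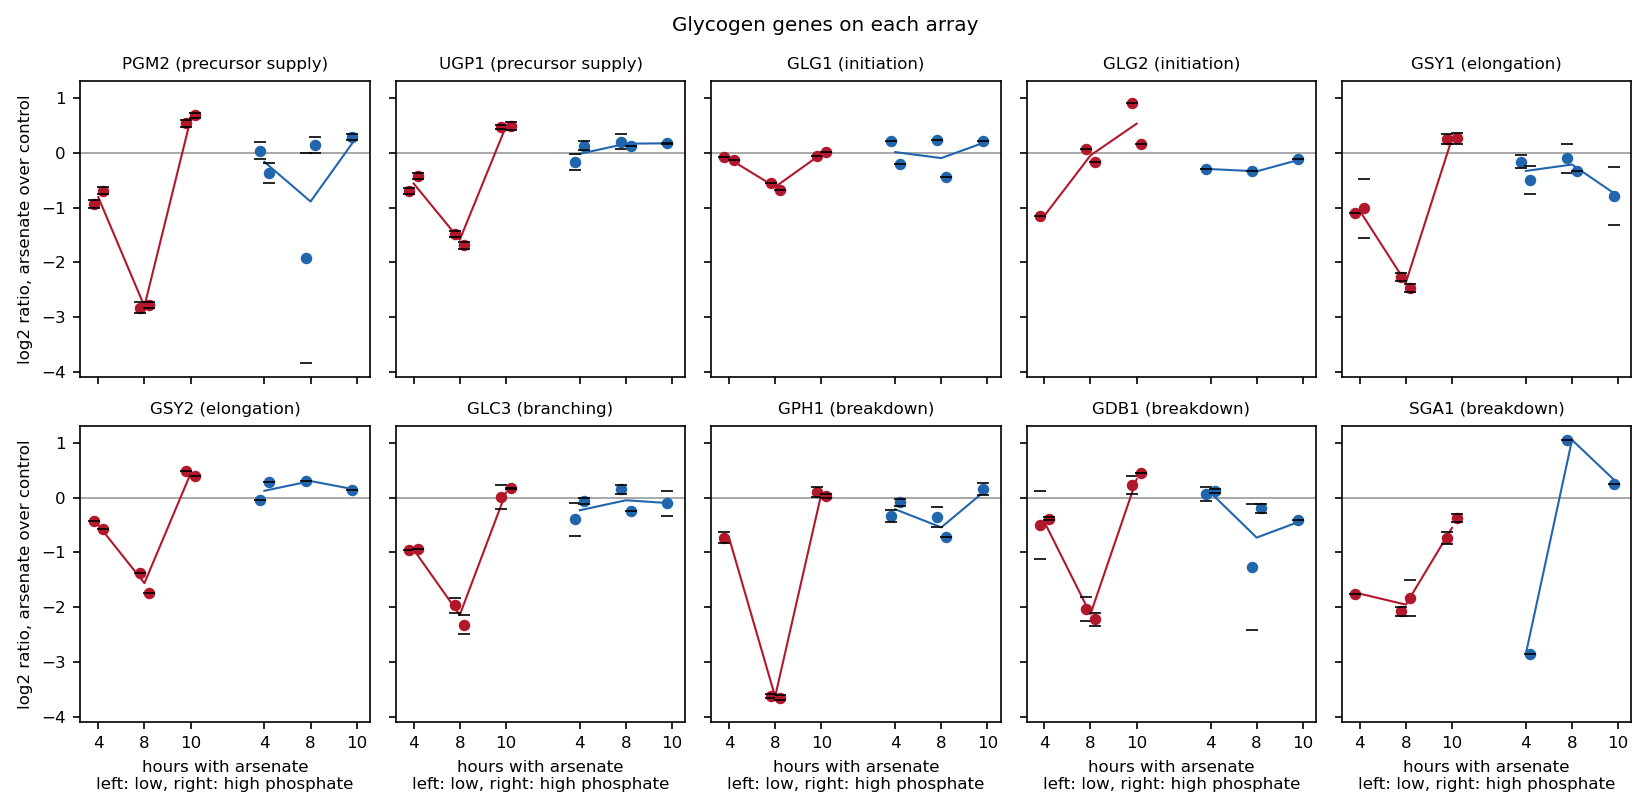
Log2 ratio of arsenate over control (vertical axis) for each glycogen gene against hours with arsenate, with low phosphate in red on the left and high phosphate in blue on the right of each panel. Each circle is 1 array (mean of its spots), each black dash 1 spot, and lines join the means of a time; at low phosphate the circles of 8 genes dip to between -1.38 and -3.64 at 8 h and stand between -0.73 and 0.68 at 10 h.

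The first step toward glycogen is taken by PGM2 (YMR105C), the major phosphoglucomutase, and UGP1 (YKL035W), the UDP-glucose pyrophosphorylase whose product also feeds trehalose and the cell wall. PGM2 read -0.93 and -0.69 after 4 h, -2.82 and -2.78 after 8 h, and 0.54 and 0.68 after 10 h of low phosphate. UGP1 read -0.70 and -0.42 after 4 h, -1.49 and -1.69 after 8 h, and 0.47 and 0.48 after 10 h. For both genes the 3 times did not overlap, with 8 h the lowest and 10 h above 0 on both arrays. PGM2 was at -2.80 ± 0.03 (SD, n = 2) at 8 h, a 6.96-fold lower level in the arsenate culture (limma adjusted p = 2.52e-12), and UGP1 was at -1.59 ± 0.15 (3.01-fold, adjusted p = 1.17e-08). At 10 h both were higher, PGM2 at 0.61 (SE 0.12, adjusted p = 0.000947) and UGP1 at 0.48 (SE 0.12, adjusted p = 0.00655). PGM1, which encodes the minor phosphoglucomutase and is not among the 10, stood at 0.09 (adjusted p = 0.627) at 4 h and 0.03 (adjusted p = 0.855) at 8 h, and was higher at 10 h (0.46, adjusted p = 0.00941). Within an array, PGM2 minus PGM1 came to -2.78 and -2.89 on the 8 h arrays, -0.82 and -0.99 on the 4 h arrays, and 0.04 and 0.25 on the 10 h arrays. The isozymes of this step thus parted at 4 and 8 h and lay close together at 10 h. The probe sequences were not used here, so signal shared between such gene pairs was not tested.

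Chain initiation is the task of the glycogenins GLG1 (YKR058W) and GLG2 (YJL137C), which glucosylate themselves. At 8 h of low phosphate they lay closest to 0 among the 10 genes. GLG1 read -0.08 and -0.14 after 4 h, -0.56 and -0.69 after 8 h, and -0.06 and 0.01 after 10 h. Its 8 h values lay below all others at low phosphate, and it was lower at 8 h (-0.63 ± 0.09, SD, n = 2; limma adjusted p = 0.000243) but not at 4 h (adjusted p = 0.52) or 10 h (adjusted p = 0.893). GLG2 read -1.15 on the single 4 h array of low phosphate that measured it, 0.07 and -0.17 after 8 h, and 0.90 and 0.15 after 10 h. It was the 1 member with its lowest value at 4 h, where it was lower at adjusted p = 0.000849 on 1 array. Its call as higher at 10 h (0.53 ± 0.53, SD, n = 2; adjusted p = 0.0136) rested on the first array, without which it stood at 0.15 (adjusted p = 0.724), and centring gave 0.46 (adjusted p = 0.0962).

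Elongation and branching are carried out by the glycogen synthases GSY1 (YFR015C) and GSY2 (YLR258W), of which GSY2 encodes the major isoform, and by the branching enzyme GLC3 (YEL011W). At low phosphate GSY1 read -1.10 and -1.01 after 4 h, -2.27 and -2.47 after 8 h, and 0.25 and 0.26 after 10 h. Its value of -1.10 came from a single spot, and that of -1.01 is the mean of spots at -0.47 and -1.55. GSY2 read -0.43 and -0.57 after 4 h, -1.38 and -1.74 after 8 h, and 0.48 and 0.39 after 10 h. GLC3 read -0.96 and -0.94 after 4 h, -1.96 and -2.31 after 8 h, and 0.02 and 0.17 after 10 h. All 3 genes were below 0 at 4 h, lower still at 8 h, and above 0 on every 10 h array of low phosphate, with no overlap between times. At 8 h GSY1 was 5.16-fold lower (-2.37 ± 0.14, SD, n = 2; limma adjusted p = 2.36e-11), GLC3 4.4-fold (-2.14 ± 0.25; adjusted p = 2.03e-10) and GSY2 2.95-fold (-1.56 ± 0.25; adjusted p = 1.83e-08). At 10 h GSY2 was higher (0.44, adjusted p = 0.0124), while GSY1 (0.26, adjusted p = 0.104) and GLC3 (0.09, adjusted p = 0.61) did not pass. The ratio of GSY1 lay below that of GSY2 on all 10 arrays that measured both, by 0.89 and 0.73 at 8 h and by 0.23 and 0.12 at 10 h of low phosphate.

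Breakdown is the work of the phosphorylase GPH1 (YPR160W), which releases glucose 1-phosphate, of the debranching enzyme GDB1 (YPR184W), and of SGA1 (YIL099W), an intracellular glucoamylase known from sporulating cells. At low phosphate GPH1 read -0.73 on the 1 array that measured it after 4 h, -3.61 and -3.64 after 8 h, and 0.11 and 0.03 after 10 h. GDB1 read -0.50 and -0.39 after 4 h, -2.02 and -2.22 after 8 h, and 0.23 and 0.45 after 10 h. Its value of -0.50 is the mean of spots at 0.12 and -1.11. SGA1 read -1.75 on 1 array after 4 h, -2.07 and -1.83 after 8 h, and -0.73 and -0.37 after 10 h. GPH1 and GDB1 thus followed the synthases, low at 8 h and near or above 0 at 10 h, whereas SGA1 stayed below 0 on all 5 low phosphate arrays that measured it. GPH1 was 12.3-fold lower at 8 h (-3.63 ± 0.02, SD, n = 2; limma adjusted p = 1.87e-13), GDB1 4.35-fold (-2.12 ± 0.14; adjusted p = 1.69e-10) and SGA1 3.86-fold (-1.95 ± 0.17; adjusted p = 2.71e-09). At 10 h SGA1 was the 1 member still lower (-0.55, adjusted p = 0.00374), GPH1 stood at 0.07 (adjusted p = 0.704), and GDB1 at 0.34 passed narrowly (adjusted p = 0.0407). GDB1 did not pass at 10 h with the replicate number as a block (adjusted p = 0.0522), nor without either 8 h array (0.0699 each).

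The low phosphate calls at 4 and 10 h were less firm than those at 8 h. At 4 h the estimates ran from -1.75 for SGA1 to -0.11 for GLG1, and GPH1, GLG2 and SGA1 rested on 1 array. When arrays were weighted by their quality, GSY1, GLC3, SGA1 and PGM2 passed at 4 h and the other 5 did not (adjusted p from 0.0718 to 0.166). Without the second 4 h array, GSY2 missed the threshold (-0.43, adjusted p = 0.0569). At 10 h, 1 member was called without the first array (PGM2, higher) and 2 without the second (GLG2 higher and SGA1 lower). GSY1 passed as higher at 10 h with array weights (adjusted p = 0.0335) and without the first or second 4 h array (0.0324 and 0.0395). At 8 h no alternative that could test a gene changed its call.

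Among all 5185 genes ordered by their 8 h estimate at low phosphate, GPH1 stood second from the bottom, after the small chaperone gene HSP26 at -3.70. PGM2 had rank 9, GSY1 14, GLC3 21, GDB1 23, SGA1 29, UGP1 41 and GSY2 46, counted from the lowest. GLG1 had rank 538 and GLG2 rank 3006. In the order of the 10 genes, the array values of GPH1 and PGM2, of PGM2 and GSY1, of SGA1 and UGP1, of GSY2 and GLG1, and of GLG1 and GLG2 did not overlap. Those of GSY1 and GLC3, GLC3 and GDB1, GDB1 and SGA1, and UGP1 and GSY2 did, so these neighbours have no order beyond their spread.

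**Figure D2:**
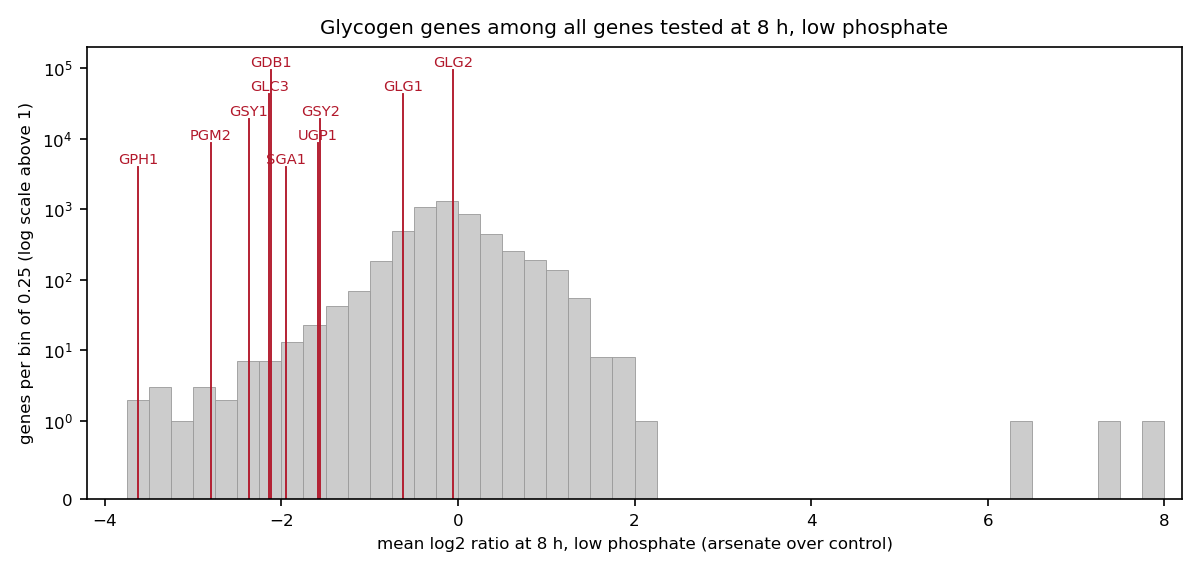
Number of genes (vertical axis, logarithmic above 1) in bins of 0.25 of the mean log2 ratio at 8 h of low phosphate (horizontal axis), for all 5185 genes tested in grey, with the 10 glycogen genes as red lines whose heights are set for legibility only. GPH1 at -3.63 and PGM2 at -2.80 stand at the far left, 8 members lie at or below -1.56, and GLG1 and GLG2 lie within the bulk.

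Between 4 and 8 h the ratio fell for 8 of the 10 genes and rose for 1, where 21.0% of all genes fell and 12.1% rose. The falls were 2.90 for GPH1, 1.99 for PGM2, 1.68 for GDB1, 1.31 for GSY1, 1.19 for GLC3, 1.06 for GSY2, 1.03 for UGP1 and 0.51 for GLG1, as differences of log2 ratios. GLG2 rose by 1.10 (SE 0.26, limma adjusted p = 0.0041), against a single 4 h array, and did not pass with array weights (adjusted p = 0.0552). SGA1 differed by -0.20 (95% interval -0.67 to 0.28, adjusted p = 0.526). The fall of GLG1 (adjusted p = 0.0232) did not pass with centred arrays (-0.32, adjusted p = 0.0779), with scaled arrays (adjusted p = 0.0816), with array weights (adjusted p = 0.0635), or without either 8 h or either 10 h array (adjusted p from 0.0543 to 0.205). Centring turned the split of all genes from 627 higher and 1088 lower to 1294 and 845.

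Between 8 and 10 h the ratio rose for all 10 genes, where 30.6% of all genes rose. GPH1 rose by 3.69 (SE 0.17, limma adjusted p = 1.47e-10) and PGM2 by 3.41 (SE 0.17, adjusted p = 1.47e-10), the highest and the second highest of all 5185 genes. GSY1 rose by 2.63, GDB1 by 2.46, GLC3 by 2.23, UGP1 by 2.06, GSY2 by 1.99 and SGA1 by 1.40. These 8 genes passed under every alternative tried. GLG1 rose by 0.60 (adjusted p = 0.00687) and GLG2 by 0.58 (adjusted p = 0.0367). GLG1 did not pass without the second 8 h array (adjusted p = 0.0946) or the second 10 h array (0.0949), and GLG2 did not pass with centred (0.38, adjusted p = 0.278) or scaled arrays (adjusted p = 0.0865), without the second 8 h array (0.205) or without the first 10 h array (0.20, adjusted p = 0.59). The all-gene median of this difference was 0.22 and moved to 0.02 on centring, with 1586 higher and 768 lower genes becoming 1125 and 1258. The 8 h arrays enter this difference and the one from 4 to 8 h with opposite sign.

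The 10 h ratio lay above the 4 h ratio for 9 of the 10 genes, where 18.1% of all genes were higher. The differences were 1.68 for GLG2, 1.42 for PGM2, 1.32 for GSY1, 1.20 for SGA1, 1.04 for both GLC3 and UGP1, 0.94 for GSY2, 0.79 for GPH1 and 0.78 for GDB1. GLG1 differed by 0.09 (limma adjusted p = 0.726). GPH1 missed the threshold without the first 10 h array (adjusted p = 0.0607), and GDB1 without the second (adjusted p = 0.0615).

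**Figure D3:**
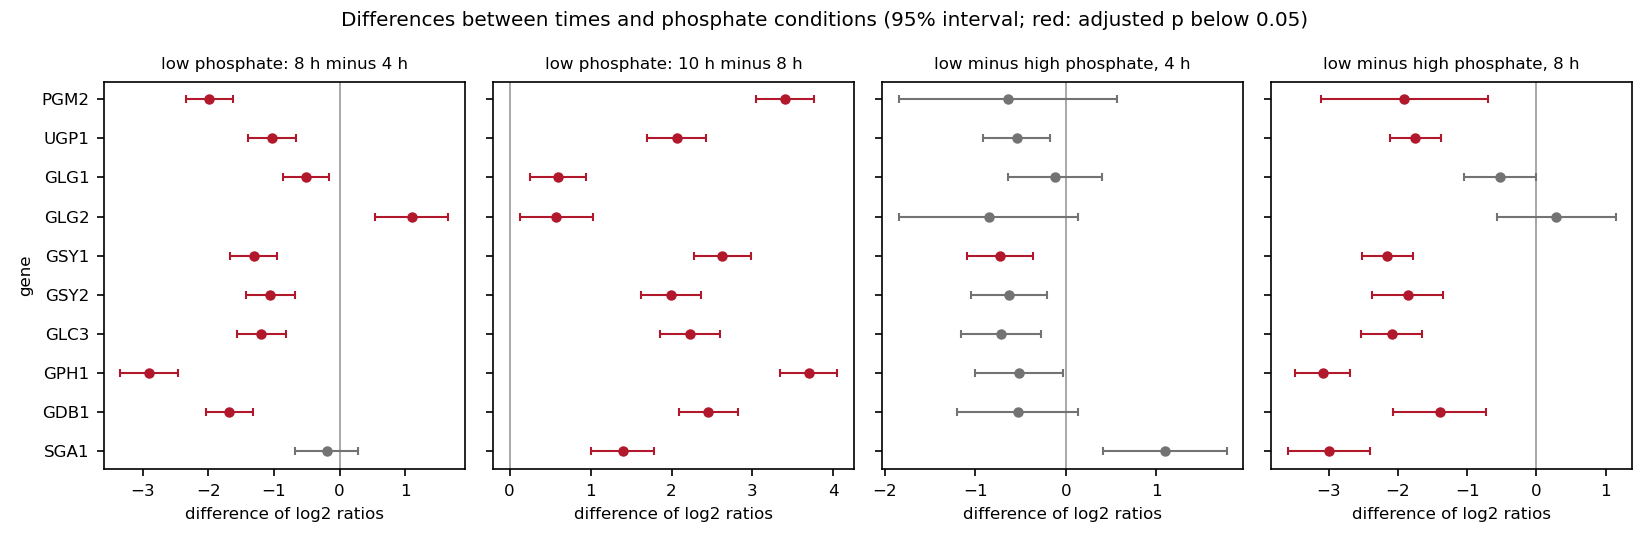
Differences of log2 ratios (horizontal axis) for each glycogen gene (vertical axis), between times at low phosphate in the panels on the left and between low and high phosphate at 4 and 8 h in those on the right. Points are limma estimates, bars their 95% intervals, and red marks an adjusted p below 0.05; 8 h minus 4 h runs from -2.90 for GPH1 to 1.10 for GLG2, 10 h minus 8 h from 0.58 to 3.69, and low minus high phosphate at 8 h from -3.08 to 0.29.

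At high phosphate none of the 8 glycogen genes that could be tested passed at 4, 8 or 10 h, nor in the mean of times or in 8 h minus 4 h. GLG2 and SGA1 had 1 array per time and no residual spread, so they have values and no test. No gene of the 4816 tested passed in any of these comparisons (0% called in each). At an unadjusted p below 0.05 by limma, 974 genes passed at 4 h, 1228 at 8 h, 577 at 10 h, 1630 in the mean and 329 in 8 h minus 4 h. Of the 8 glycogen genes, 0 did so at 4 h, GPH1 at 8 h, GSY1 at 10 h and in the mean, and 0 in 8 h minus 4 h.

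The precursor and initiation genes lay close to 0 on most high phosphate arrays. UGP1 read -0.17 and 0.13 after 4 h, 0.20 and 0.13 after 8 h, and 0.17 after 10 h. Its mean over the times was 0.10 (95% interval -0.11 to 0.31, limma adjusted p = 0.377). By single time, its high phosphate intervals were -0.34 to 0.29 at 4 h, -0.15 to 0.48 at 8 h and -0.28 to 0.62 at 10 h. The low phosphate means at these times were -0.56, -1.59 and 0.48, and that of 10 h lay inside. Those means have a spread of their own, so this is no test of a difference between conditions. PGM2 read 0.03 and -0.37 after 4 h, -1.92 and 0.14 after 8 h, and 0.28 after 10 h. The value of -1.92 is the mean of spots at -0.01 and -3.84 on the first 8 h array. GLG1 read 0.22 and -0.20 after 4 h, 0.24 and -0.44 after 8 h, and 0.21 after 10 h, so that replicates lay on opposite sides of 0. GLG2 was listed at -0.30, -0.34 and -0.11 on the single arrays of 4, 8 and 10 h.

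The synthases and the branching enzyme had small values at high phosphate. GSY1 read -0.17 and -0.50 after 4 h, -0.10 and -0.33 after 8 h, and -0.79 after 10 h, where its spots read -0.27 and -1.32. It was below 0 on 5 of 5 arrays. Its mean of -0.45 had a 95% interval from -0.70 to -0.20 (limma adjusted p = 0.077). It passed without the first 8 h array (-0.49, adjusted p = 0.032) and without the second (-0.41, adjusted p = 0.0467), fits in which 1 array of 8 h was assumed to vary like the others. GSY2 read -0.03 and 0.28 after 4 h, 0.30 on 1 array after 8 h, and 0.14 after 10 h. GLC3 read -0.40 and -0.06 after 4 h, 0.15 and -0.25 after 8 h, and -0.10 after 10 h, and neither of these 2 genes kept 1 sign over all arrays.

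Of the breakdown genes, GPH1 read -0.34 and -0.08 after 4 h, -0.36 and -0.73 after 8 h, and 0.16 after 10 h. Both 8 h arrays were the lowest, and the 8 h estimate was -0.54 (95% interval -0.94 to -0.14, limma adjusted p = 0.156). GDB1 read 0.06 and 0.12 after 4 h, -1.26 and -0.19 after 8 h, and -0.41 after 10 h. The value of -1.26 is the mean of spots at -2.41 and -0.12, again on the first 8 h array. SGA1 read -2.84 on 1 array after 4 h, 1.05 on 1 array after 8 h and 0.25 after 10 h, each from 1 spot. With the first 8 h array as the only one at 8 h, PGM2 (-1.92, adjusted p = 0.0213) and GDB1 (-1.26, adjusted p = 0.017) passed at 8 h and the count of all genes rose from 0 to 564. Without that array PGM2 stood at 0.14 and GDB1 at -0.19.

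**Figure D4:**
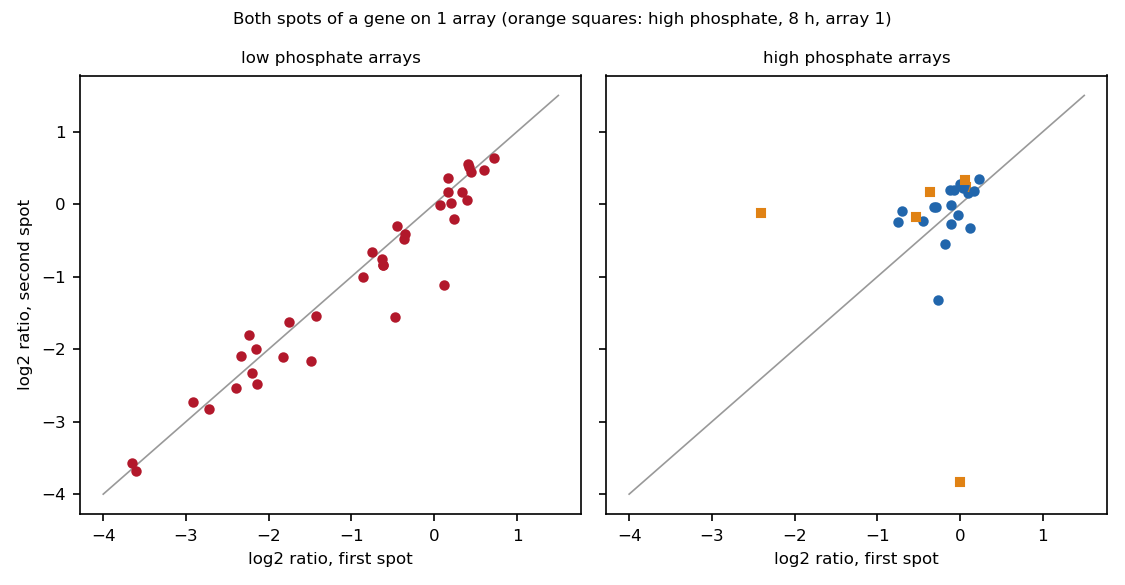
Log2 ratio of the second spot (vertical axis) against the first spot (horizontal axis) of the glycogen genes with 2 spots, 1 point per gene and array, at low phosphate on the left and high phosphate on the right, with the line of equality. Orange squares are the first 8 h array at high phosphate, where PGM2 (-0.01 and -3.84) and GDB1 (-2.41 and -0.12) lie far off the line; at low phosphate no pair lay over 1.23 apart.

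The low and high phosphate arrays come from separate tables on different array designs, so phosphate and array design cannot be told apart in the differences that follow. At 8 h the ratio was lower at low phosphate for 8 of the 10 genes and higher for 0, where 9.92% of 4841 genes were lower. GPH1 differed by -3.08 (95% interval -3.48 to -2.69, limma adjusted p = 0.000225), GSY1 by -2.15 (adjusted p = 0.000242), GLC3 by -2.09 and UGP1 by -1.75 (adjusted p = 0.000512 each), and GSY2 by -1.86 (adjusted p = 0.00145). For these 5 genes the arrays of both conditions did not overlap at 8 h, but GSY2 had 1 spot on 1 high phosphate array, the first of 8 h. SGA1, also among the 8, differed by -3.00, against 1 spot on 1 high phosphate array, the first of 8 h, which stood apart. Its own spread in this fit came from low phosphate arrays alone. PGM2 (-1.91, adjusted p = 0.0273) and GDB1 (-1.39, adjusted p = 0.00902) carry the disagreeing spots of the first high phosphate array, without which they differed by -2.94 (adjusted p = 1.18e-06) and -1.93 (adjusted p = 1.36e-05). PGM2 did not pass without the first or second low phosphate array of 8 h (adjusted p = 0.122 and 0.115) or with scaled arrays (-1.19, adjusted p = 0.168), and GDB1 did not pass without the second (adjusted p = 0.0674) or with scaled arrays (-0.85, adjusted p = 0.0832). The glycogenins did not pass, GLG1 at -0.53 (95% interval -1.04 to -0.01, adjusted p = 0.118) and GLG2 at 0.29 (95% interval -0.56 to 1.15, adjusted p = 0.572). GLG1 passed with the replicate block (adjusted p = 0.0413) and without the second high phosphate array of 8 h (-0.86, adjusted p = 0.00585).

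At 4 h GSY1 was the 1 glycogen gene of 10 with a lower ratio at low than at high phosphate (-0.72, SE 0.16, limma adjusted p = 0.0342), where 1.36% of all genes were lower. Its adjusted p ran from 0.00808 to 0.176 over the alternatives, and it did not pass without any 1 of the 6 low phosphate arrays (0.066 and 0.111 for those of 4 h, 0.0681 and 0.0676 for 8 h, 0.071 and 0.0706 for 10 h), without the first high phosphate array of 4 h (0.176), with scaled arrays or with array weights (0.0551 each). GLC3 (-0.72, adjusted p = 0.0565), GSY2 (-0.63, adjusted p = 0.0722), UGP1 (-0.54, adjusted p = 0.0743) and SGA1 (1.09, adjusted p = 0.0696, from 1 array in each condition) lay near the threshold. With centred arrays GSY1, GSY2, GLC3 and UGP1 were lower, and the all-gene split went from 368 higher and 66 lower to 213 and 187, with the all-gene median going from 0.19 to 0.00. With the replicate block SGA1 passed as higher (1.24, adjusted p = 0.0443). The 10 h difference between conditions was not tested.

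Averaged over the 3 times, 9 of the 10 genes were lower at low phosphate, where 20.1% of all genes were lower, and GLG2 did not pass (-0.22, limma adjusted p = 0.0886; with the replicate block -0.31, adjusted p = 0.00764). GLG2 passed with robust moderation of the variances (adjusted p = 0.0318) and without the first 10 h array (-0.35, adjusted p = 0.01). GLG1 did not pass without the second 8 h array (adjusted p = 0.0582) or the first 10 h array (0.0555). The lowest means were -1.43 for GPH1 and -1.42 for SGA1. The means hide the course over time: without the 8 h arrays GPH1 (-0.33, adjusted p = 0.0498), GSY1 (-0.40), GLC3 (-0.43) and SGA1 (-1.15) passed, and PGM2 (-0.10, adjusted p = 0.505), UGP1 (-0.04), GSY2 (-0.03), GDB1 (-0.05) and GLG1 (-0.07) did not. In low minus high phosphate over matched times, 6 were lower, where 4.92% of all genes were lower, namely GPH1 (-1.23), SGA1 (-0.90), GLC3 (-0.87), GSY2 (-0.73), UGP1 (-0.66) and GSY1 (-0.61). SGA1 had 1 array at each time of high phosphate, so its spread there was not measured. With scaled arrays 4 were lower, and GSY1 (-0.33, adjusted p = 0.0806) and SGA1 (-0.53, adjusted p = 0.0558) did not pass. Without the lone 10 h array of high phosphate, the matched times were 4 and 8 h, so 10 h of low phosphate left the comparison too. Over these times GSY1 stood at -1.44, GLC3 at -1.40, GSY2 at -1.24 and UGP1 at -1.14, each past the threshold. Without the 8 h arrays 0 passed, and of the 6 genes GSY1 (0.16, adjusted p = 0.424) and SGA1 (0.15, adjusted p = 0.613) changed sign. PGM2 (-0.74, adjusted p = 0.13) and GDB1 (-0.39, adjusted p = 0.151) did not pass, but did where genes with spots over 2 apart were left out (-1.09, adjusted p = 0.00138, and -0.57, adjusted p = 0.00646). Without the first 8 h array of high phosphate PGM2 stood at -1.09 and GDB1 at -0.57. Both also passed over 4 and 8 h alone, without the 10 h array of high phosphate (-1.28, adjusted p = 0.0332, and -0.96, adjusted p = 0.0109). PGM2 passed with array weights (adjusted p = 0.0481) and without the second 8 h array of high phosphate (-0.40, adjusted p = 0.0164), a fit in which GLG1 passed too (-0.40, adjusted p = 0.0131). Centring moved the all-gene split of this comparison from 918 higher and 238 lower to 776 and 530.

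Glycogen enzymes are controlled by a phosphatase, kinases and targeting proteins. A list of 24 genes measured at low phosphate holds such regulators and also PGM1, described above. At 8 h 13 of the 24 were lower and 1 higher (median -0.51), beside 30.5% lower among all genes and an all-gene median of -0.13. With centred arrays 12 were lower and 1 higher, beside 1181 lower and 1446 higher of all genes. The genes with the largest differences were IGD1, an inhibitor of the debranching enzyme, at -1.45 (limma adjusted p = 2.31e-06), and the genes of 3 proteins that direct the phosphatase Glc7 to glycogen, GAC1 at -1.45 ± 0.70 (SD, n = 2; adjusted p = 2.51e-06), PIG2 at -1.42 (adjusted p = 2.39e-08) and GIP2 at -1.42 (adjusted p = 1.42e-06). TPK2, a catalytic subunit of protein kinase A, was at -1.08 (adjusted p = 6.26e-07), while its paralog TPK3 was the 1 gene of the list that was higher (0.50, adjusted p = 0.0029). TPK3 was named after its value was seen. The genes of the phosphatase itself and of the kinases PHO85 and SNF1 did not pass at 8 h, with GLC7 at -0.14 (adjusted p = 0.353), the cyclin-dependent kinase PHO85 at -0.18 (adjusted p = 0.201) and SNF1, the AMP-activated kinase of yeast, at -0.24 (adjusted p = 0.123). The cyclins that guide Pho85 to glycogen synthase stood at -0.28 for PCL8 (adjusted p = 0.0859) and 0.15 for PCL10 (adjusted p = 0.345). Of the stress activators, MSN4 was lower (-0.89, adjusted p = 5.53e-06) and MSN2 did not pass (-0.25, adjusted p = 0.0944).

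At 4 h 5 of these 24 genes were higher and 3 lower (median 0.03), beside 763 higher and 603 lower (11.6%) of all 5185 genes. With centred arrays 3 were higher and 7 lower, beside 883 and 922 of all genes. GAC1 (0.93 on 1 array, limma adjusted p = 0.00991), GLC7 (0.47, adjusted p = 0.00737) and MSN4 (0.40, adjusted p = 0.0183) were higher, and IGD1 (-0.92 ± 0.79, SD, n = 2; adjusted p = 0.00105) and PCL10 (-0.67, adjusted p = 0.00101) were lower. At 10 h 6 were higher, PGM1 among them, and 2 lower (median 0.09), beside 20.2% higher and 12.8% lower among all genes. These included MSN2 (0.59, adjusted p = 0.00106), SNF1 (0.47, adjusted p = 0.00764) and PCL8 (0.40, adjusted p = 0.0269) as higher and PIG2 (-0.53, adjusted p = 0.00232) and MSN4 (-0.42, adjusted p = 0.0104) as lower. From 8 to 10 h 18 rose and 1 fell (median 0.73), where 30.6% of all genes rose. With centred arrays 14 rose and 1 fell, beside 1125 and 1258 of all genes. At high phosphate 0 of the 20 genes of this list that were tested passed at any time, where 0% of all 4816 genes passed.

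Trehalose, the other storage sugar of yeast, is made from the same UDP-glucose. All 7 of its genes were lower at 8 h of low phosphate (median -1.05), where 30.5% of all genes were lower, under centring and scaling too, with TSL1, a regulatory subunit of trehalose synthase, at -2.23 (limma adjusted p = 9.11e-10), the synthase TPS1 at -1.23, the acid trehalase ATH1 at -1.08, the phosphatase TPS2 at -1.05, and the neutral trehalases NTH2 at -1.01 and NTH1 at -0.70. As among the glycogen genes, those for synthesis and for breakdown were lower at the same hour. At 4 h 4 of the 7 were lower and 0 higher (median -0.54), where 11.6% of all genes were lower. At 10 h 4 were higher and 0 lower (median 0.33), where 20.2% of all genes were higher, with TSL1 at 0.85 (adjusted p = 0.000241) and TPS1 at 0.36 (adjusted p = 0.0249). From 8 to 10 h all 7 rose, where 30.6% of all genes did, TSL1 by 3.08, the third highest of all 5185 genes after GPH1 and PGM2.

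Genes of the general stress response were lower at the same times. All 15 were lower at 4 h (median -0.98; 11.6% of all genes) and at 8 h (median -1.51; 30.5% of all genes), with HSP26 at -3.70, the hexokinase HXK1 at -2.45, DDR2 at -2.26, DCS2 at -2.13 and the catalase CTT1 at -1.89 at 8 h. At 10 h 2 were higher and 4 lower (median 0.09), beside 20.2% higher and 12.8% lower among all genes. Ribosomal protein genes, which fall in the stress response of yeast as these genes rise, were higher in 134 of 136 cases at 8 h and lower in 0 (median 1.11), in 46 at 4 h against 1 lower, and in 126 at 10 h against 0. Their median was 0.76 at 10 h. Of all 5185 genes, 951 were higher and 1584 lower at 8 h. At 4 h 763 were higher and 603 lower, and at 10 h 1047 and 662. The 8 h directions of the stress and ribosomal protein genes were the same with centred and with scaled arrays. At low phosphate the medians of stress genes were thus below 0 at 4 and 8 h, as those of the glycogen genes were, and those of ribosomal protein genes were above 0 at 8 h. Their part in the result was not tested.

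**Figure D5:**
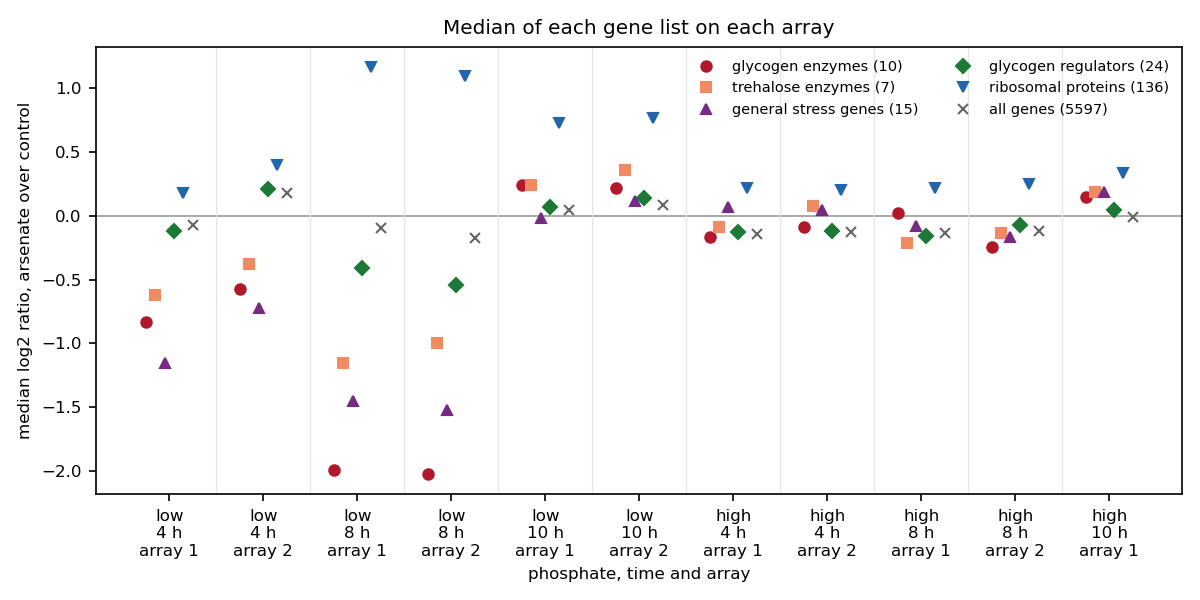
Median log2 ratio of arsenate over control (vertical axis) of each gene list on each of the 11 arrays (horizontal axis), with the number of genes measured in the legend. On the 8 h arrays of low phosphate the glycogen enzymes stand at -1.99 and -2.02, below the stress genes (-1.45 and -1.52), the trehalose enzymes and the regulators (-0.41 and -0.54), while ribosomal protein genes stand at 1.16 and 1.09; on the high phosphate arrays the enzymes lie between -0.25 and 0.15.

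GSY1, GLC3, GLG1, GDB1, PGM2 and UGP1 had a value on all 11 arrays. Each was correlated over the 11 arrays with the mean of the other 5, as a description without a test, since the arrays fall into the groups of the design. Pearson's r was 0.955 for UGP1, 0.937 for GSY1, 0.926 for GLC3, 0.910 for GDB1, 0.877 for PGM2 and 0.687 for GLG1. Of the 3929 genes on all arrays, those most like the mean of the 6 were KSP1, a protein kinase gene, at r = 0.978, YMR196W at 0.968, RGI1 at 0.963, and GRE3, an aldose reductase gene that is also in the stress list, and SNT1 at 0.960 each. Likeness in pattern was not likeness in size. On the 8 h arrays of low phosphate KSP1 read -0.56 and -0.73 and SNT1 -0.45 and -0.59, whereas YMR196W read -1.64 and -1.72 and RGI1 -2.19 and -2.13.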

How the data were processed

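The deposited values are log2 ratios of both channels, which the authors normalized on spots with a flag value of 0, per the labels. The normalization method, scanner, software, log base, centring and build were not given in the sources used here. The base was assumed to be 2, and the direction was taken from the dyes (Cy5 arsenate, Cy3 control). Gene names came from the platform annotation, and 5636 of 5636 (high) and 5593 of 5598 (low phosphate) matched the reference gene table. The 1536 (high) and 1605 (low) spots without a gene were left out. No sequence or genome position is given.

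Spots were averaged per gene and array. Genes on at least 1 array of every group and with at least 1 residual degree of freedom were fitted with limma 3.58.1 in R 4.3.3 (lmFit, eBayes; two-sided; Benjamini-Hochberg over all genes, threshold 0.05). The design had 1 mean per time, fitted over all low (5185 genes), all high (4816) or all arrays (4841), without a block. The spread of the other arrays was used for the lone 10 h array of high phosphate. The same holds for genes with 1 array at a time, such as GPH1, GLG2 and SGA1 at 4 h of low phosphate. GLG2 and SGA1 had 1 array at each time of high phosphate. In low minus high phosphate their own spread thus came from low phosphate arrays alone. The prior degrees of freedom were 15.5, 1.72 and 3.48, so at low phosphate standard errors (SE) are mostly the pooled spread; standard deviations (SD) are between arrays. At low phosphate the differences between replicates 1 and 2 correlated across times at 0.109, 0.136 and 0.19, so the replicate numbers may pair arrays there. At high phosphate the correlation was -0.025. The main fits did not use this pairing, which entered only in the replicate block alternative. The labels name no shared batch. The fit was tested on simulated data. Python 3.11.15, numpy 2.4.6, pandas 2.3.3 and matplotlib 3.10.9 were used.

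The members and the gene lists were chosen with earlier results of these data known. Named were the 10 members, up to 5 genes of each list (regulators, trehalose, stress) with the largest change among those past the threshold at 8 h of low phosphate, a set of key regulators and trehalose genes, and the 5 genes most like the members. Alternatives were centring and scaling arrays, the median of spots, genes on every array, robust moderation, array weights, the replicate block, leaving out 8 h or single arrays, and, chosen after seeing the data, leaving out genes whose spots lay over 2 apart. Intensities and backgrounds were not used, so signal over background is unknown.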

Additional observations from a re-analysis of the deposited data

Results flagged for a closer look

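At low phosphate the response of the glycogen genes to arsenate differed between times by limma's test of the difference itself. From 4 to 8 h the differences were -2.90 for GPH1, -1.99 for PGM2, -1.68 for GDB1, -1.31 for GSY1, -1.19 for GLC3, -1.06 for GSY2, -1.03 for UGP1 and -0.51 for GLG1, and GLG2 went the other way at 1.10. From 8 to 10 h the differences were 3.69 for GPH1, 3.41 for PGM2, 2.63 for GSY1, 2.46 for GDB1, 2.23 for GLC3, 2.06 for UGP1, 1.99 for GSY2, 1.40 for SGA1, 0.60 for GLG1 and 0.58 for GLG2. From 4 to 10 h they were 1.68 for GLG2, 1.42 for PGM2, 1.32 for GSY1, 1.20 for SGA1, 1.04 for GLC3, 1.04 for UGP1, 0.94 for GSY2, 0.79 for GPH1 and 0.78 for GDB1.

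The response also differed between low and high phosphate, where phosphate and array design cannot be told apart. At 8 h low minus high phosphate was -3.08 for GPH1, -3.00 for SGA1, -2.15 for GSY1, -2.09 for GLC3, -1.91 for PGM2, -1.86 for GSY2, -1.75 for UGP1 and -1.39 for GDB1. SGA1 and GSY2 had 1 high phosphate array at 8 h. At 4 h it was -0.72 for GSY1. Over matched times it was -1.23 for GPH1, -0.90 for SGA1, -0.87 for GLC3, -0.73 for GSY2, -0.66 for UGP1 and -0.61 for GSY1. No group had the 4 arrays needed to look for single arrays far from the others.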

How the results depend on the processing

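Over the glycogen genes and all comparisons, 1992 values were recomputed under alternatives. Of these, 1887 kept their call, 62 no longer passed with the same sign, 41 newly passed, and 2 lost their call and changed sign. Both of these were in low minus high phosphate over matched times without the 8 h arrays, for GSY1 (0.16) and SGA1 (0.15). Signs were not compared where neither fit passed, and some of those values changed sign too. An example is PGM2 at 8 h of high phosphate, at -0.89, and at 0.14 without the first 8 h array. That comparison averages 4 and 10 h. At 4 h the differences were -0.72 for GSY1 and 1.09 for SGA1. At 10 h GSY1 stood at 0.26 at low phosphate and -0.79 on the lone high phosphate array, and SGA1 at -0.55 and 0.25. Why these arrays differed was not tested. At 8 h of low phosphate all 134 recomputed values kept their call. The number of members called moved by over 1.5 times in these cases. Without the 8 h arrays it went from 9 to 4 in the low phosphate mean and from 6 to 0 in low minus high phosphate over matched times. Array weights took it from 9 to 4 at 4 h of low phosphate. Genes on every array, where fewer members could be tested, gave 3 in place of 6 over matched times and 5 in place of 8 for low minus high phosphate at 8 h. For low minus high phosphate at 4 h, where 1 member passed, centring gave 4, scaling 2, array weights 0, leaving out genes with spots over 2 apart 2, and the replicate block 2. The replicate block (paired analysis) changed 4 calls of single members, each given beside its gene in the results, and no other call. Leaving out single arrays gave 7 to 9 members called in the low phosphate mean, 6 to 9 at 4 h, 7 to 9 at 8 h, 1 to 7 at 10 h, 7 to 9 for 8 h minus 4 h, 7 to 10 for 10 h minus 8 h and 6 to 9 for 10 h minus 4 h. At high phosphate it gave 0 to 3 in the mean, 0 to 2 at 8 h, 0 to 1 for 8 h minus 4 h and 0 at 4 and 10 h. For low minus high phosphate it gave 4 to 8 over matched times, 0 to 7 at 4 h and 6 to 9 at 8 h. The lone array left at a time is then assumed to vary like the others.

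Counts of all genes called also moved. They ran from 1148 (without 8 h) to 2504 (centred) against 2036 in the low phosphate mean, from 355 (array weights) to 1805 (centred) against 1366 at 4 h, from 1380 (without the second 8 h array) to 3192 (array weights) against 2535 at 8 h, and from 609 (without the first 10 h array) to 2388 (array weights) against 1709 at 10 h. At high phosphate 1260 genes passed in the mean without the first 8 h array, against 0. Signal over background was not available, so a limit set by dim spots could not be looked at.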
